A study of Mus musculus with 864 samples.

Results

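The calcium pumps of mouse sensory neurons and their reticulum regulator phospholamban were described across 6 neuron types of the lumbar dorsal root ganglion. The set held 6 of the 23281 genes in the table: the plasma membrane calcium ATPases Atp2b1, Atp2b2, Atp2b3 and Atp2b4, the reticulum calcium ATPase Atp2a2 and Pln. The genes were selected on their levels in these same cells, so their differences between neuron types are a description. How many of them passed the threshold of the fit over all genes is given once beside the share of all genes that did, and supports nothing. All 6 passed the filter on low values, a mean of 5 RPM (reads per gene scaled to equal library totals) over the type and preparation means. Pln passed it only through its level in the Pvalb type.

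A neuron that has fired must clear calcium from its cytosol. Plasma membrane calcium ATPases, encoded by the Atp2b genes, export it across the cell surface, and need neuroplastin or basigin as a partner subunit. The reticulum pump SERCA2, encoded by Atp2a2, moves calcium into the endoplasmic reticulum. Phospholamban, encoded by Pln and known best from heart muscle, binds SERCA2 and lowers its affinity for calcium until protein kinase A or CaMKII phosphorylates it.

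The cells came from C57/Bl6 mice aged 6 to 8 weeks, from 6 lumbar ganglia per dissection, with no genetic change or treatment named in the labels. Single cells were picked by hand and their transcripts tagged at the 5′ end. Of 864 wells, 799 were described as holding a single cell, and 694 of these with 1000 or more genes above 0 were used. The fewest genes in a well that was kept was 1024, and the most in a single-cell well left out was 990. No animal is named in the labels. The replicate was therefore the preparation, meaning cells of 1 sex from 1 picking session. Preparations 1 and 2 were the males and the females of session A, preparation 3 the males of session B, and preparations 4 and 5 the males and the females of session C. Sessions A and B were picked at room temperature and session C with cooling. Preparations 1 to 5 held 30.8%, 6.48%, 25.4%, 26.5% and 10.8% of the cells used. Median reads per cell were 15421 in preparation 1 and 2573230 in preparation 5, so picking temperature went with depth.

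Neuron types were set by gates on RPM: Th 200, marking low-threshold mechanoreceptors with unmyelinated axons; Mrgprd 50, nonpeptidergic nociceptors; Tac1 200, peptidergic nociceptors; and Pvalb 300, proprioceptors and some myelinated touch neurons. Calb1 100 and Htr3a 50 were applied to cells under the Pvalb gate with Nefh at 1166 RPM or more, and mark other myelinated neurons. Exactly 1 gate was passed by 275 cells: 64 Th, 30 Mrgprd, 41 Pvalb, 16 Calb1 and 22 Htr3a cells, with the other 37.1% in the Tac1 type. No gate was passed by 19.6% of the 694 cells and more than 1 by 283 cells, of which 271 passed the Tac1 gate, and these stood outside the types. Of the 24 markers listed for the first 4 types, 4 are the gate genes themselves, which had to be high, and the 20 others all had their highest mean in their own type. The summed neurofilament markers were 5670 RPM or more in every preparation of the Pvalb, Calb1 and Htr3a types and 1861 RPM or less in the others. Nefh is on that list and was a condition for Calb1 and Htr3a cells, so their high sums were partly set in advance. Necab2, also on the list, was 136.6 RPM in Htr3a but lower in Pvalb (14.6) and Calb1 (2.60) than in Th (29.5).

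Gate genes were also read in wells without a cell. Of 28 wells that were empty or held only medium, 12 reached the Tac1 gate, 4 the Pvalb gate, 2 the Th gate and 1 each of the other 3 gates, and 1 reached 5000 RPM of Tac1. Pvalb had 12 reads in 6 of these wells, up to 4422 RPM. A Tac1 gate at 5000 RPM was added after the control wells were seen. It typed 430 cells, 43.5% of them Th, and 99 Mrgprd cells. Its values are given beside some of those that it changed, but not for shares of the Atp2b reads. The 6 genes of the set had few reads in those control wells, which had a median of 2134 reads. Atp2b1 had 7 reads in all, Atp2b2 had 1 and Atp2a2 had 2, and none had a read of Atp2b3, Atp2b4 or Pln. On the RPM scale the means over the control wells were 57.2 for Atp2b1, 4.14 for Atp2b2 and 44.2 for Atp2a2. Single wells reached 1371 RPM of Atp2b1 and 1044 RPM of Atp2a2.

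Levels below are the mean RPM of the cells of a type in a preparation with 3 or more such cells, then the mean ± SD over preparations. Levels of different genes were not tested against each other. Each gene, or its share of the summed Atp2b reads, was compared between neuron types. Differences are log2(mean RPM + 5), each type minus the mean of the other types, from 1 limma fit over 9980 genes with the preparation as a block, given with their SE. Past the threshold means a Benjamini-Hochberg adjusted p under 0.05 over all those genes.

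The 6 genes had 1 difference past the threshold in each of the Th, Mrgprd, Tac1 and Pvalb contrasts. Of all genes, 3.61% were past it in the Th contrast, 8.68% in Mrgprd, 1.2% in Tac1 and 3.13% in Pvalb. In the Calb1 contrast, where 1.4% of all genes were past it, and in the Htr3a contrast, with 0.0301%, limma found none of the 6, though 4 and 2 had an unadjusted p under 0.05, as had 9.43% and 4.20% of all genes, and edgeR also found none. Since the genes were chosen for such patterns in the same cells, these counts are no test of them and nothing is read from them. The 4 differences were low Atp2b2 in the Mrgprd type, high Atp2b4 in the Tac1 type, low Atp2a2 in the Th type and high Pln in the Pvalb type. Atp2b4 in Tac1 did not pass without preparation 3 or 4, with no filter on low values or with cells thinned to 3000 reads. Atp2a2 in Th did not pass without preparation 3, with thinned cells or with 8 or more cells required of every type and preparation. Pln in Pvalb did not pass without preparation 4, with 8 or more cells required, or with sessions B and C only. With the Tac1 gate at 5000 RPM, 10 pairs of gene and type passed. More of all genes passed there as well: 7.8% in Th, 11.7% in Mrgprd, 8.26% in Tac1, 10.1% in Pvalb, 3.8% in Calb1 and 0.406% in Htr3a.

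**Figure D1:**
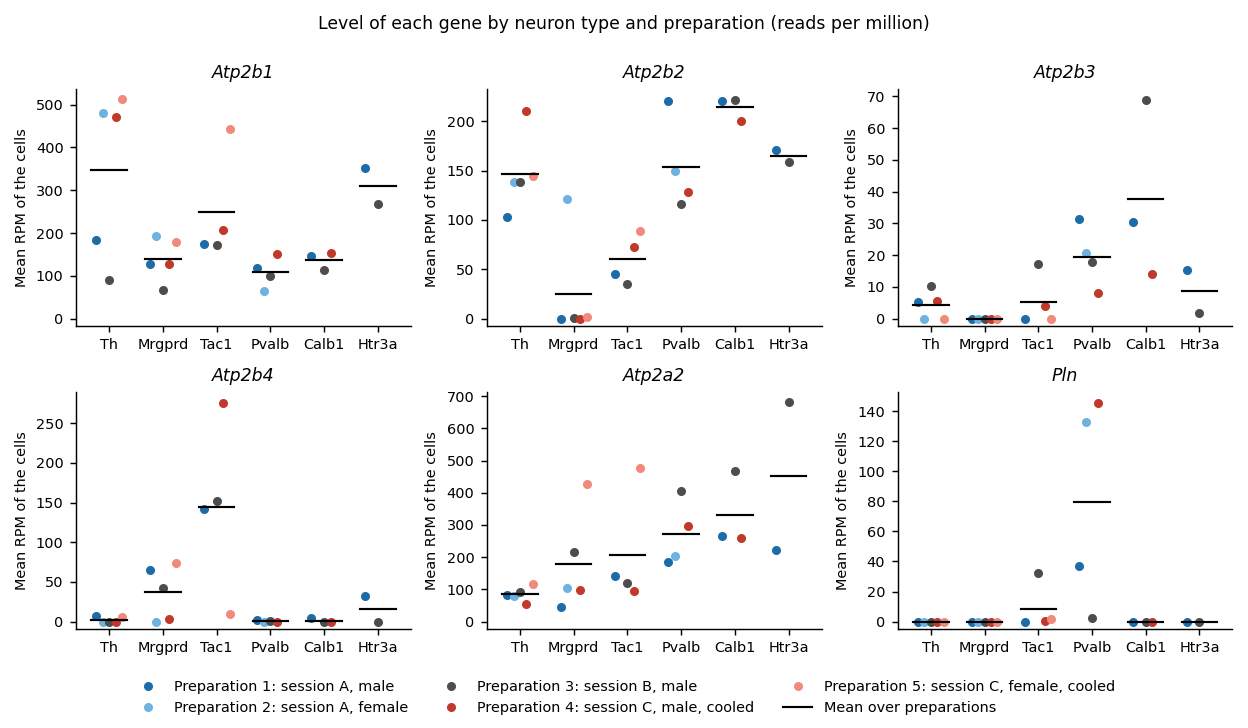
Mean RPM of each gene (y axis, linear, its own scale in each panel) in the 6 neuron types (x axis); each point is 1 preparation with 3 or more cells and the line is the mean over preparations. Pln has its highest mean in the Pvalb type, Atp2b4 in the Tac1 type, and Atp2b2 is at 1.33 RPM or less in 4 of 5 Mrgprd preparations.

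Atp2b1 encodes PMCA1, the housekeeping member of the family. Its level was 348 ± 195.96 RPM in the Th type (SD, n = 5), 310 ± 59.8 in Htr3a (n = 2), 249 ± 130.1 in Tac1 (n = 4), 139.3 ± 49.4 in Mrgprd (n = 5), 137.6 ± 20.8 in Calb1 (n = 3) and 109.1 ± 36.3 in Pvalb (n = 4). The ranges of each neighbouring pair in that order overlapped. Preparation means in the Th type were 183.9, 481, 90.2, 471 and 514 RPM, so preparations 1 and 3 lay well below the others. The largest differences were 1.27 ± 0.47 in Htr3a and -0.93 ± 0.35 in Pvalb. With the Tac1 gate at 5000 RPM, that of Mrgprd was -0.77 ± 0.22 and that of Pvalb -0.69 ± 0.22.

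RefSeq promoter windows of GRCm38.p6, from 250 bases before to 50 after a gene start, were held for 4 of the 6 genes, 7 windows in all. They were searched on both strands for TATAAA (the TATA box), GGGCGG (a GC box), TGTGGT (a RUNX core) and CATATG (an E-box form), none of which contains another. These motifs occur in 13.6%, 35.7%, 16.8% and 3.91% of 32851 such windows. TGTGGT and CATATG were in none of the 7. The first Atp2b1 window is shown because that gene was detected in the most cells of the set. It lies at chr10:98914392-98914691 on the plus strand, has 54 CG dinucleotides against a median of 7 over all windows, and holds 3 GC boxes, in capitals.

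Atp2b1 promoter: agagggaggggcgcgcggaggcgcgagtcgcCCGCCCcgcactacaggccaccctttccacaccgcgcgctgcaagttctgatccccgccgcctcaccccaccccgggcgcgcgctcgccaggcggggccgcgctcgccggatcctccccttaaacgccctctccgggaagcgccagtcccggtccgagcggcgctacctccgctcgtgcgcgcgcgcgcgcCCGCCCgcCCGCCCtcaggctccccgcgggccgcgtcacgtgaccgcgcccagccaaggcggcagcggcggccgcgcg

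Atp2b2 encodes PMCA2, a fast pump known from hair cells and Purkinje neurons. It was low in Mrgprd neurons. The 5 preparations of the Mrgprd type had 0, 121.7, 1.00, 0.192 and 1.33 RPM, so 4 were near 0 and preparation 2 stood apart. That preparation held 3 Mrgprd cells, with 1, 8 and 1 reads of Atp2b2. The cell with 8 reads had 1119 RPM of Nefh and 104.9 RPM of Mrgprd, against 201.6 and 45.0 RPM of Nefh and 605 and 315 RPM of Mrgprd in the others. The part of these neurofilament reads in the Atp2b2 value was not tested. The level was 213.96 ± 11.97 RPM in the Calb1 type (n = 3), 164.5 ± 8.91 in Htr3a (n = 2), 153.4 ± 46.7 in Pvalb (n = 4), 146.9 ± 39.1 in Th (n = 5) and 60.6 ± 24.4 in Tac1 (n = 4), against 24.8 ± 54.1 in Mrgprd (n = 5). Ranges did not overlap between Calb1 and Htr3a, nor between Th and Tac1, and the other neighbours overlapped.

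In Atp2b2 the Mrgprd type differed from the other types by -3.94 ± 0.50 on the log2 scale. Without preparation 2 the difference was -4.70, and over the leave-one-out fits it lay between -4.70 and -3.71. Atp2b2 was read in 7 of 30 Mrgprd cells, 23.3% (95% Wilson interval 11.8 to 40.9%), against 48 of 64 Th cells, 75.0% (63.2 to 83.99%). Median reads per cell were 359854 in the Mrgprd type and 605329 in the Th type. Brought to 3000 reads a cell, the expected shares were 2.98% and 29.8%. With the Tac1 gate at 5000 RPM, the difference was -3.53 ± 0.35 for Mrgprd, -1.52 ± 0.43 for Tac1, 1.17 ± 0.35 for Th and 1.61 ± 0.43 for Calb1. The 3 promoter windows of Atp2b2, on chromosome 6, had 8 to 27 CG dinucleotides, and 2 of them held GC boxes.

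Atp2b3 encodes PMCA3, a brain-enriched isoform, and had the fewest reads of the 4 plasma membrane pumps, 5990 in 110 of 694 cells. Its level was 37.8 ± 28.1 RPM in the Calb1 type, where the 3 preparations had 30.5, 68.9 and 14.2 RPM. It was 19.4 ± 9.62 in Pvalb (n = 4), 8.67 ± 9.65 in Htr3a (n = 2), 5.33 ± 8.17 in Tac1 (n = 4) and 4.25 ± 4.38 in Th (n = 5). All 30 Mrgprd cells were at 0, which, as 3 counts of 30, allows a share of up to 10.0% of cells with a read. Neighbours in that order overlapped. The differences were 1.80 ± 0.61 for Calb1, 1.08 ± 0.55 for Pvalb and -1.41 ± 0.50 for Mrgprd. Cells with a read made up 75.0% of the Calb1 type and 17.2% of the Th type, and at 3000 reads 9.15% and 1.54% would be expected.

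Atp2b4 encodes PMCA4, a slow and widely used pump. It was highest in Tac1 neurons, with 142.4, 151.8, 276 and 10.1 RPM in preparations 1, 3, 4 and 5, of which the last stood far below the others. The mean was 144.97 ± 108.5 RPM (n = 4), against 36.95 ± 34.3 in Mrgprd (n = 5), 16.2 ± 22.9 in Htr3a (n = 2), 2.66 ± 3.67 in Th (n = 5), 1.34 ± 2.32 in Calb1 (n = 3) and 0.659 ± 1.17 in Pvalb (n = 4). Preparation 5 of the Tac1 type lay within the Mrgprd and Htr3a ranges, and neighbouring ranges overlapped throughout. The Mrgprd preparations had 64.8, 0, 42.0, 3.44 and 74.5 RPM, so preparations 2 and 4 were low. The difference was 3.31 ± 0.68 for the Tac1 type. It was 2.79 without preparation 3, 2.57 without preparation 4, 4.27 without preparation 5 and 3.37 with cells thinned to 3000 reads.

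The split within the Tac1 gate was wide. A read of Atp2b4 was found in 30 Tac1 cells, 29.4% of the type (21.5 to 38.9%), and the highest had 2665 RPM. Among the 46 cells at 5000 RPM of Tac1 or more and past no other gate, 23 had a read, 50% (36.1 to 63.9%). Their preparation means were 275, 255 and 513 RPM. Preparation 5, the low one at the 200 RPM gate, had fewer than 3 such cells and gave none of these means. With the gate at 5000 RPM the Tac1 difference was 5.25 ± 0.59, the Th difference was -2.05 ± 0.49 and the Mrgprd difference was 0.05 ± 0.49. At the 200 RPM gate the Tac1 difference without preparation 5 was 4.27, so the gates differed in preparations as well as in cells. Over all 373 cells past the Tac1 gate, Atp2b4 varied with other peptidergic genes: Pearson r of log2(RPM + 5) was 0.485 with Adcyap1 (PACAP), 0.391 with Calca (CGRP) and 0.388 with Gal (galanin). Within preparations r with Adcyap1 ran from -0.10 to 0.524, the cells share libraries and depth, and these values are a description. The Atp2b4 window, shown because this gene was highest in the Tac1 type, lies at chr1:133753698-133753997 on the minus strand. It has 4 CG dinucleotides and none of the 4 motifs, so no base is in capitals.

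Atp2b4 promoter: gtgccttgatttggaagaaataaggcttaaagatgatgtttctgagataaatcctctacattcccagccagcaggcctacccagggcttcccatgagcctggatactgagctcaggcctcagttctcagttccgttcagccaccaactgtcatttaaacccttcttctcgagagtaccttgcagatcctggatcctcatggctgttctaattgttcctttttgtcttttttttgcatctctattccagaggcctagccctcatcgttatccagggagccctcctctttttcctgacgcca

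**Figure D2:**
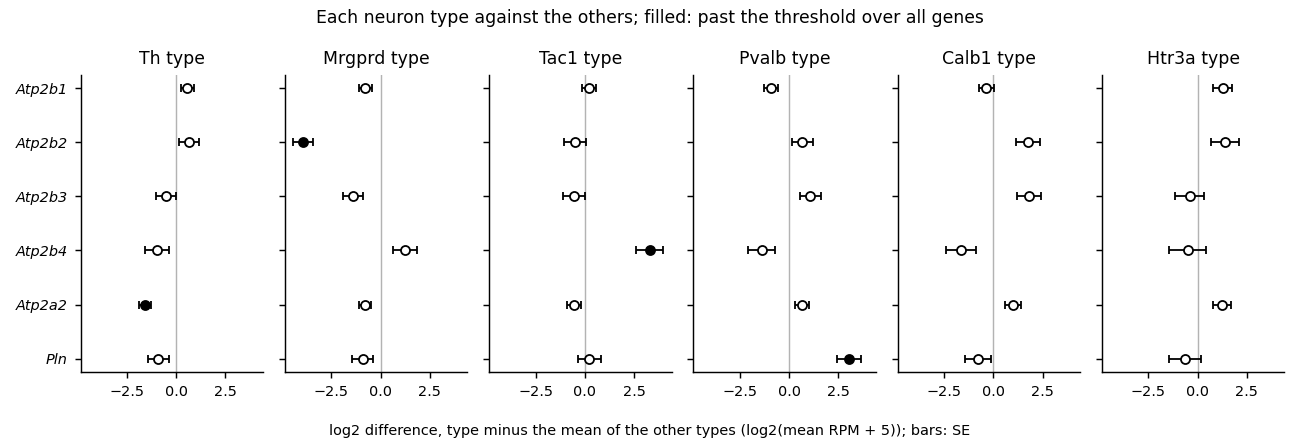
log2 difference of each gene (rows) in each type against the mean of the other types (x axis, log2(mean RPM + 5)); bars are SE and filled points are past the threshold over all 9980 genes. The filled points are Atp2a2 in Th, Atp2b2 in Mrgprd, Atp2b4 in Tac1 and Pln in Pvalb.

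The make-up of the plasma membrane pump reads differed between types, taken as shares of summed Atp2b RPM. Atp2b2 took 54.8 ± 0.29% in the Calb1 type (n = 3) and 54.1 ± 8.67% in Pvalb (n = 4), 33.4 ± 14.7% in Th (n = 5), 12.8 ± 2.85% in Tac1 (n = 4) and 8.07 ± 17.2% in Mrgprd (n = 5). Atp2b4 took 32.7 ± 21.03% in Tac1 and 20.7 ± 17.97% in Mrgprd and 2.84% or less in the other 4 types. Atp2b3 took 9.50 ± 6.79% in Calb1 and 6.88 ± 2.79% in Pvalb, and under 2% elsewhere. Atp2b1 ranged from 35.4 ± 6.80% in Calb1 to 71.3 ± 15.02% in Mrgprd. The Htr3a type, with 62.1 ± 0.62% Atp2b1, 33.5 ± 5.00% Atp2b2 and 1.57 ± 1.61% Atp2b3 (n = 2), had shares close to those of the Th type (64.5%, 33.4% and 1.39%) and unlike the other myelinated types. In these data the Calb1 and Pvalb types had Atp2b1 and Atp2b2 with some Atp2b3, the Mrgprd type Atp2b1 with some Atp2b4, and the Tac1 type Atp2b1, Atp2b4 and less Atp2b2. Shares were not tested, and were taken with the Tac1 gate at 200 RPM only. With that gate at 5000 RPM the Tac1 difference was 5.25 ± 0.59 for Atp2b4 and -1.52 ± 0.43 for Atp2b2. The make-up of the Tac1 type may therefore differ with the gate.

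**Figure D3:**
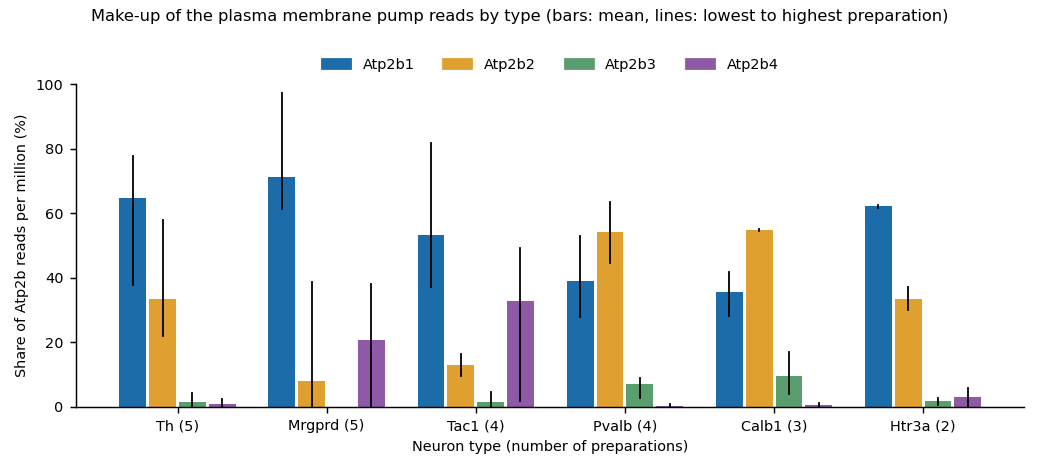
Share of the summed Atp2b RPM (y axis, percent) taken by each Atp2b gene in the 6 neuron types; bars are means over preparations and lines run from the lowest to the highest preparation. Atp2b4 reaches 20.7% and 32.7% in the Mrgprd and Tac1 types and Atp2b2 over 50% in the Pvalb and Calb1 types.

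Atp2a2, the reticulum pump gene, was found in every type and was lowest in Th neurons. The 5 preparations of the Th type had 82.8, 80.7, 92.3, 55.9 and 116.6 RPM and lay close together. The means were 453 ± 323 RPM in Htr3a (n = 2), 331 ± 117.95 in Calb1 (n = 3), 273 ± 101.3 in Pvalb (n = 4), 208.4 ± 179.95 in Tac1 (n = 4) and 85.6 ± 21.9 in Th (n = 5). All Th preparations were below all those of Pvalb, Calb1 and Htr3a, and the mean was 179.1 in Mrgprd, whose 5 preparations ran from 44.2 to 429 RPM. Mrgprd and Tac1 overlapped with Th. The Th difference was -1.59 ± 0.32. It was -1.50 without preparation 3, -1.12 with 8 or more cells required of every type and preparation, -0.93 with cells thinned to 3000 reads and -1.52 ± 0.25 with the Tac1 gate at 5000 RPM. Schwann cell markers, all 5 with reads, summed to 1320 to 2497 RPM over the Th preparations with a cell median of 1420 RPM, against cell medians of 59.7 to 370 RPM in the other types. In the other types, preparation sums of the Schwann markers reached 4634 RPM in Tac1 and 933 RPM in Pvalb, and were lower in the rest. Satellite glia markers ran from 161.4 to 4650 RPM in the Th preparations. They ran from 82.9 to 6772 RPM in those of Pvalb and from 369.8 to 2138 RPM in those of Tac1, with 1093 RPM or less in the rest. Their part in the low Atp2a2 of the Th type was not tested. Calb1 (1.00 ± 0.39), Htr3a (1.24 ± 0.47) and Pvalb (0.67 ± 0.35) had positive differences. A read of Atp2a2 was present in 60.9% of Th cells and 93.8% of Calb1 cells, and at 3000 reads 16.3% and 55.9% would be expected.

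Fibroblast markers went with the highest Atp2a2 values in session C. The 3 cells highest in Atp2a2, at 2957, 1840 and 1817 RPM, were all of preparation 5, and their summed fibroblast markers were 19060, 14870 and 18130 RPM. They include a Tac1 cell and a Mrgprd cell, and the preparation 5 means of those types were 477 and 429 RPM. Summed over the 4 fibroblast markers, all 4 of which had reads in both types, preparation means ran from 0 to 2862 RPM in Mrgprd, from 1.97 to 6579 RPM in Tac1 and from 0 to 347 RPM in Th. Their part in the Atp2a2 levels of the Mrgprd and Tac1 types was not tested. With cells at 1000 RPM or more of mural, fibroblast, endothelial or immune markers left out, an alternative chosen after the data were seen, the Th difference in Atp2a2 was -2.20, and that alternative did not use the Schwann or satellite lists.

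The other reticulum pump genes were near absent. Atp2a1 and Atp2a3, the genes of SERCA1 and SERCA3, named here after their values were seen, had means of 1.62 RPM or less in every type. Sln, which encodes the related SERCA inhibitor sarcolipin, was at 0 in all typed cells.

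Pln was found mainly in Pvalb neurons. The 4 preparations of the Pvalb type had 36.98, 133.03, 2.56 and 145.4 RPM, a mean of 79.5 ± 70.6, so preparation 3 stood near 0. A read was found in 5 of 14, 2 of 6, 2 of 15 and 2 of 4 of their cells. The high means of preparations 2 and 4 thus rested on 2 cells each. Pln was at 0 in all 30 Mrgprd, 16 Calb1 and 22 Htr3a cells. As 3 counts of the cells, this allows shares of up to 10.0%, 18.8% and 13.6% of cells with a read. In the Th type 2 of 64 cells had a read and the mean was 0.0164 RPM. The Tac1 mean of 8.52 ± 15.9 RPM (n = 4) rested on 1 cell of preparation 3 with 1188 RPM of Pln. That cell had 14750 RPM of Acta2 and 25140 RPM of Tagln, smooth muscle genes, and without it the preparation's Pln mean went from 32.4 to 0.282 RPM. Pln passed the filter on low values only through the Pvalb type. Outside it, preparation means were 1.49 RPM or less apart from the 32.4 RPM above. The Pvalb difference was 3.04 ± 0.60, and 3.04 with no filter. It was 2.37 without preparation 4, 4.15 without preparation 3, 2.43 with sessions B and C only, and 1.28 with 8 or more cells required of every type and preparation.

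Pln was also high in cells that the types left out. Of all 74 cells past the Pvalb gate, 31 had a read of Pln, 41.9% (31.3 to 53.3%), against 20 of the 620 cells not past it, 3.23% (2.10 to 4.93%). Of the 31 cells with 50 RPM or more of Pln, 24 passed the Pvalb gate, and 16 of these passed the Tac1 gate as well. Of the 7 others, the highest 2 had 41470 and 9412 RPM of mural markers, and the rest had 0 to 189.8 RPM. The rest include 3 cells past both the Th and Tac1 gates, with Pln at 240.1, 151.4 and 137.4 RPM and Pvalb at 0. Among all cells past the Th gate, 9 had a read of Pln, 3.95% (2.09 to 7.33%). In the Pvalb type the summed mural markers were 0.889 to 18.01 RPM by preparation, from 4 of the 6 genes. The Pvalb type with the Tac1 gate at 5000 RPM had Pln in 24 of 58 cells and a difference of 3.51 ± 0.52. Within the 74 cells, Pearson r of Pln was 0.496 (Spearman 0.490) with Etv1, a transcription factor of proprioceptors, 0.308 with Spp1, 0.318 with Pvalb and 0.0891 with its target pump Atp2a2. Within preparations r ran from 0.131 to 0.615 for Etv1, from -0.14 to 0.499 for Spp1, from -0.65 to 0.618 for Pvalb and from -0.222 to 0.486 for Atp2a2. The Pln window is shown as the regulator found in the Pvalb type. It lies at chr10:53337436-53337735 on the plus strand, has 1 CG dinucleotide and 36% GC against a median of 52.7%, and holds 1 TATAAA, in capitals.

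Pln promoter: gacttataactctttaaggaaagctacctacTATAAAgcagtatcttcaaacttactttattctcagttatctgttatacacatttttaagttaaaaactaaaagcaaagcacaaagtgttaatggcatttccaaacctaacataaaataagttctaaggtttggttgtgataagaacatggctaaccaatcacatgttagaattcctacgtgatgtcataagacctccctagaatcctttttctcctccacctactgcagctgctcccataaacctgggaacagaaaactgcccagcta

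**Figure D4:**
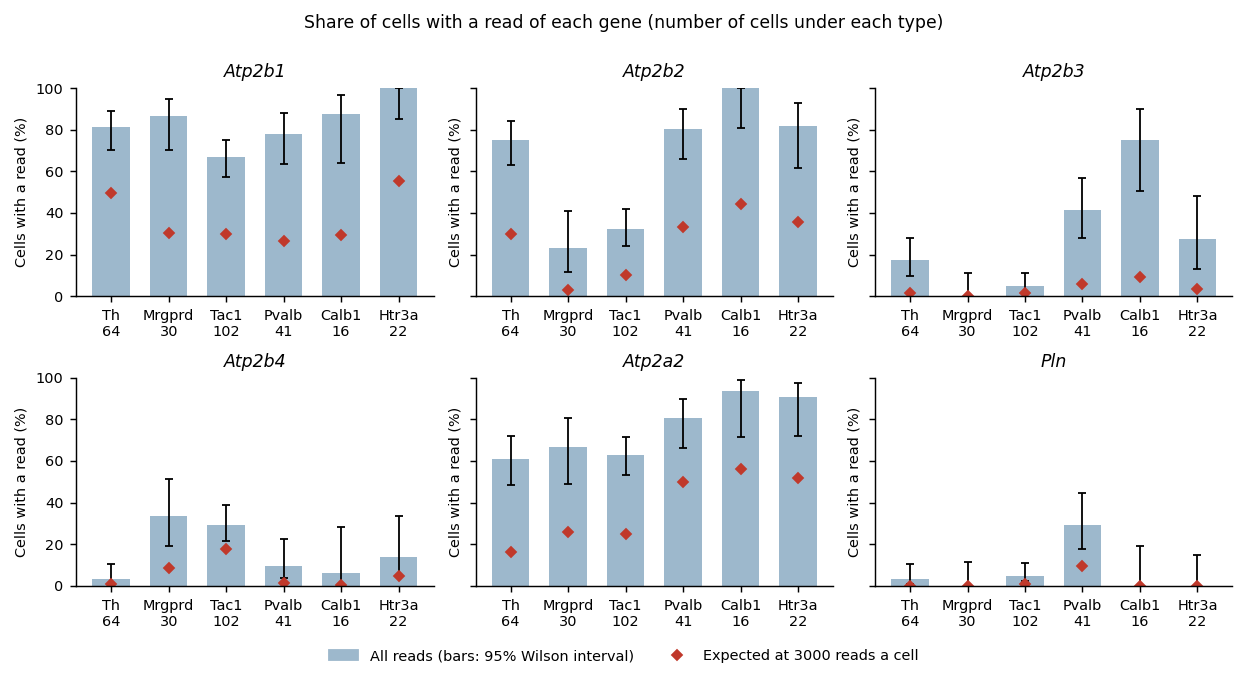
Percent of cells with 1 or more reads of each gene (y axis) in the 6 neuron types, with the number of cells under each; lines are 95% Wilson intervals, which cover counting error only, and red diamonds give the share expected at 3000 reads a cell. Pln was read in 29.3% of Pvalb cells and in no Mrgprd, Calb1 or Htr3a cell.

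Across the 23 means of type and preparation, the genes most like each member were named by Pearson r of log2(mean RPM + 5), as a description of points that share libraries. For Atp2b2 they were Tagln3 (0.943), Ckmt1 (0.920) and Nptn (0.919). For Pln they were Tuba8 (0.851), Gm13629 (0.835) and Rpgrip1 (0.801). For Atp2b3 they were Oprl1 (0.842), Dlg2 (0.836) and Gabrg1 (0.831), and for Atp2b4 Dgkg (0.778) and Sdc1 (0.774) are given. For Atp2b1 they were Cplx2 (0.745), Scin (0.734) and Pde1c (0.723), and for Atp2a2 Ell2 (0.764), Ldb3 (0.741) and B230217C12Rik (0.739). Among the 6 genes themselves, r was 0.553 between Atp2b2 and Atp2b3, -0.544 between Atp2b2 and Atp2b4, and 0.132 between Atp2a2 and Pln.

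Genes that work with the pumps were taken from a list of 49 calcium-handling symbols, of which 44 were in the table and 26 passed the filter. Limma called 8 of the 26 in the Mrgprd contrast, 7 of them lower, where 8.68% of all genes were called, 334 higher and 532 lower, and the list median was -0.617 against -0.207 for all genes. In Pvalb 5 were called, 3 higher and 2 lower, beside 3.13% of all genes, with a median of 0.227 against 0.0916. In Th 1 was lower, beside 3.61% of all genes (medians -0.0645 and -0.127), and in Tac1 1 was lower, beside 1.2% (-0.0776 and -0.00202). In Calb1 and Htr3a neither limma nor edgeR called any. There 10 and 2 had an unadjusted p under 0.05, as had 9.43% and 4.20% of all genes.

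Nptn, the neuroplastin subunit of the plasma membrane pumps, was low in the type that was low in Atp2b2. Its mean was 30.8 ± 38.9 RPM in Mrgprd (n = 5), where preparations ran from 8.86 to 99.9, and 78.6 to 406 RPM in the 18 other means. The limma difference was -3.19 ± 0.39 (adjusted p = 2.04e-07), and the adjusted p ran from 5.37e-10 to 0.187 over 21 alternatives, the highest with cells thinned to 3000 reads. The CaMKII genes, whose kinase phosphorylates phospholamban, differed between types in opposite directions. Camk2a was 259 RPM in Mrgprd, with preparations from 150.7 to 411, a limma difference of 3.71 ± 0.62 (adjusted p = 4.38e-05, range 8.68e-09 to 0.534), and 6.69 ± 10.7 RPM in Pvalb, -2.39 ± 0.67 (adjusted p = 0.0375, range 3.19e-05 to 0.275). The 18 Camk2a means outside Mrgprd ran from 0 to 519.1 RPM, so the highest lay above every Mrgprd preparation. In Tac1 the Camk2a difference was 2.31 ± 0.67, not past the threshold (limma adjusted p = 0.0853). Camk2b was lower in Mrgprd, -2.44 ± 0.55 (limma adjusted p = 0.0022, range 1.81e-05 to 0.412). Camk2g was lower in Th, -2.33 ± 0.39 (limma adjusted p = 9.66e-05, range 8.76e-07 to 0.0389). Camk2d was lower in Pvalb, -1.72 ± 0.49 (limma adjusted p = 0.0384, range 0.000961 to 0.533).

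Ryr2, a calcium release channel of the reticulum, was lower in Mrgprd, -1.99 ± 0.56 (limma adjusted p = 0.018, range 0.00066 to 0.694). Slc24a2, a potassium-dependent sodium-calcium exchanger, was 547 ± 208.2 RPM in Pvalb (n = 4), higher by 1.57 ± 0.34 (limma adjusted p = 0.0031, range 0.000128 to 0.623). In Tac1 it was lower, 99.9 ± 33.3 RPM and -1.35 ± 0.34 (limma adjusted p = 0.0289, range 5.36e-05 to 0.475). In Mrgprd it was lower too, -1.23 ± 0.31 (limma adjusted p = 0.00726). Prkaca, the catalytic subunit of protein kinase A, was higher in Pvalb by 1.32 ± 0.37 (limma adjusted p = 0.0376, range 0.000497 to 0.809), and lower in Mrgprd, -1.50 ± 0.34 (limma adjusted p = 0.00266). The other calls, named like these 2 in Mrgprd after their values were seen, were Calm3 and Ppp1cc, both lower in Mrgprd, and Calm2, higher in Pvalb. Without preparation 1, and without preparation 4, the Pvalb calls of Camk2a, Camk2d, Slc24a2 and Prkaca and the Tac1 call of Slc24a2 were lost. Without preparation 3 these were lost except that of Slc24a2 in Pvalb, without preparation 2 that of Prkaca, and Ryr2 was lost without preparation 1, 3 or 4 and Camk2b without preparation 1. The calls of the list numbered 15, and 6, 9 and 7 without preparations 1, 3 and 4.

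By session, the members were compared in the Th and Mrgprd types, the only types with 3 or more cells in all 5 preparations. Limma called none of the 6 genes between cooled and room-temperature picking, none had an unadjusted p under 0.05, and 0.0902% of all genes were called. The mean of the log2 levels of Atp2b1 was 7.31, 8.27, 6.38, 7.98 and 8.27 in preparations 1 to 5, a difference of 0.65 ± 0.57 (limma adjusted p = 0.678). Atp2b2 was 4.54, 7.08, 4.87, 5.06 and 4.94, a difference of -0.71 ± 0.87 (limma adjusted p = 0.776), with preparation 2 above the rest. The ranges of cooled and room-temperature values overlapped for all 6 genes.

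Atp2a2 differed by 0.36 ± 0.70 (limma adjusted p = 0.874), Atp2b4 by 0.12 ± 0.99 (0.979) and Atp2b3 by -0.07 ± 0.41 (0.965), and Pln was at or near 0 in both types throughout. Between males of sessions C and B, with no test, the same log2 values differed by 1.60 for Atp2b1, 0.19 for Atp2b2, -0.27 for Atp2b3, -1.24 for Atp2b4 and -0.88 for Atp2a2. With 2 residual degrees of freedom the test could show large differences only, and cooling, session C and depth cannot be told apart. In the Pvalb type, Pln was 145.4 RPM in its cooled preparation and 36.98, 133.03 and 2.56 RPM in those at room temperature.

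**Figure D5:**
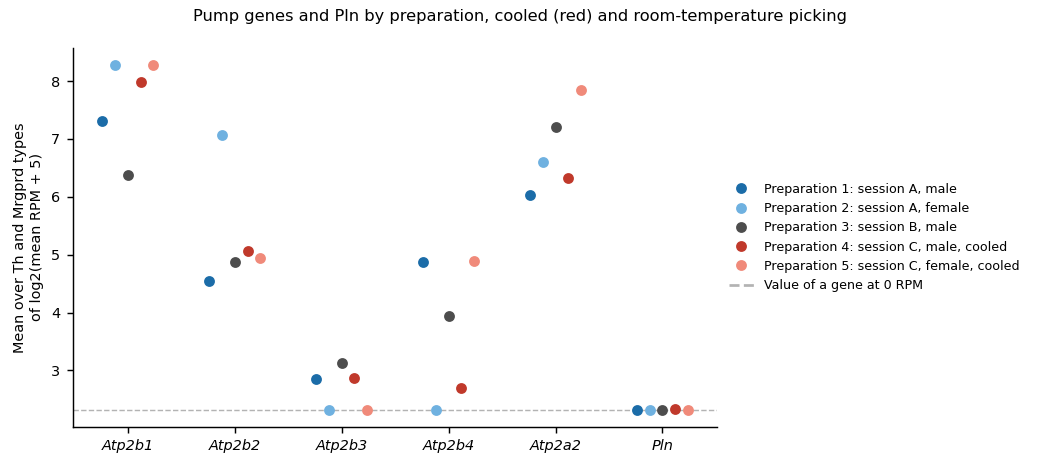
Mean over the Th and Mrgprd types of log2(mean RPM + 5) (y axis) for each gene in preparations 1 to 5, cooled ones in red; the dashed line is the value of a gene at 0 RPM. The ranges of cooled and room-temperature points overlap for all 6 genes, and the highest Atp2a2 point is the cooled preparation 5.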

How the data were processed

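Per the submitters' processing notes, reads were mapped with Bowtie (version not given in the sources used here) to mouse build mm9. The authors deposited RPM per gene and well, without molecular identifiers. A further 4 columns, all whole and of unknown scale, were deposited as a score and left out. Whole reads were recovered from the smallest step of 841 columns, where 99.5% of values were whole within 0.1, and not claimed for 23, including 8 cells used.

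Gene copies at several loci were summed. The 6 genes, the lists, gates and markers were chosen with earlier results of these data known. Named genes were the 6, up to 4 called list genes per contrast with the largest log2 difference, and the 3 genes most correlated with each of the 6, of which 1, for Atp2b4, is not reported here.

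Means of type and preparation with 3 or more cells, 23 in all, entered a limma 3.58.1 fit on the log2 scale after adding 5 RPM (trend, robust, preparation block, 13 residual degrees of freedom; R 4.3.3), tested on simulated data. Cooling used the mean of the Th and Mrgprd types with sex as covariate. edgeR 4.0.16 on summed recovered reads was an alternative. Adjustment was Benjamini-Hochberg, two-sided. Preparations are not known to be separate animals. With preparation as a block, p-values of the type fit measure how far type differences vary between preparations. Those of the cooling fit measure spread between preparations themselves. Either spread may be technical. Median reads by type ran from 52026 (Pvalb) to 864199 (Calb1); intervals cover counting error only. No doublet caller was run; wells described as holding more than 1 cell were left out.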

Additional observations from a re-analysis of the deposited data

Results flagged for a closer look

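In groups of 4 or 5 preparations, 6 of 28 had a highest value far from the others by Dixon's criterion, where chance flags about 1 in 20. Atp2b1 and Atp2a2 in the Tac1 type were highest in preparation 5, at 443 and 477 RPM. Atp2b2 in the Mrgprd type was highest in preparation 2, at 121.7 RPM. Pln was highest in preparation 3 of the Tac1 type, at 32.4 RPM, and in preparation 4 of the Th type, at 0.0822 RPM. Atp2b4 in the Pvalb type was highest in preparation 1, at 2.41 RPM. The other preparations were at or near 0 in the Pln groups of the Th and Tac1 types. The same held for the Atp2b2 group of the Mrgprd type and the Atp2b4 group of the Pvalb type. The chance rate does not apply to any of these groups.

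The 33 wells described as holding more than 1 cell entered no comparison. Reads were present in more of them than of the 28 control wells, 60.6% for Atp2b1, 51.5% for Atp2b2, 42.4% for Atp2a2, 15.2% for Atp2b4, 6.06% for Atp2b3 and 3.03% for Pln, against 7.14%, 3.57%, 7.14%, 0%, 0% and 0%.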

How the results depend on the processing

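Of the 6 genes, 4 pairs of gene and type were past the threshold, a count that describes genes chosen on these cells and supports nothing. Leaving out each preparation in turn gave 2 to 6, and the 15 calls of the calcium-handling list became 6 to 17. The counts of pump genes and of list genes were 8 and 31 with cells past several gates given the largest ratio, 2 and 3 with cells thinned to 3000 reads, 8 and 35 with the mean of log values, 2 and 5 with 8 or more cells, and 10 and 31 with the Tac1 gate at 5000 RPM; the list had 6 with sessions B and C only. The fit with 8 or more cells had 5 of the 6 types. The share of all genes called in a type contrast ran from 0.0301 to 8.68% in the main fit. It ran from 0.424 to 14.3% with the largest ratio and 0.051 to 2.51% with thinned cells. With the mean of log values it was 1.53 to 36.4%, and with 8 or more cells 0.13 to 2.28%. With the Tac1 gate at 5000 RPM it was 0.406 to 11.7%, and with sessions B and C only 0.0602 to 5.42%. Why these counts and shares moved was not tested. The other settings, edgeR (6 and 13) among them, kept both counts within 1.5 times, and cooling gave 0 pump genes in all its alternatives; edgeR was not run on cooling, and males of sessions C and B gave values only. Of 732 recomputed differences of the 6 genes, 663 moved by less than the residual SD, 69 moved further and no called one changed sign; of 210 for named list genes, 65 fell short of the threshold and none changed sign. With no replicate block for preparation the counts were 5 and 12. At a median of 15421 reads a cell, preparation 1 limits what can be seen of Atp2b3, Atp2b4 and Pln.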

Other observations

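The highest single-cell values of 2 plasma membrane pump genes were in cells past no gate. A cell of preparation 5 with 1228 genes had 10060 RPM of Atp2b1, and its leading marker list was that of endothelium, at 226.7 RPM. A cell of preparation 4 with 2187 genes had 7794 RPM of Atp2b4, with the endothelial list leading at 213.3 RPM. Atp2c1, the gene of a Golgi calcium pump, was named after its values were seen. Its highest and lowest means among the 6 types were 97.96 ± 73.3 RPM in Th (n = 5) and 15.6 ± 7.54 in Htr3a (n = 2). The differences were 1.15 ± 0.62 for Th and -1.18 ± 0.91 for Htr3a, neither past the threshold.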
